A study of Mus musculus with 6 samples.

Results

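The genes described here are 49 protein-coding genes of ribosome biogenesis, the assembly line in the nucleolus that makes ribosomal subunits. They were taken by symbol from the deposited count tables, which hold 53762 genes, and all 49 were found and had enough reads to be tested. RNA was sequenced from immortalized MEFs, fibroblast cultures derived from mouse embryos, in 6 libraries. Of these, 3 were labelled PME-1 KO and 3 PME-1 WT, and all cells were harvested 24 hours after they had been seeded in high glucose medium. PME-1, encoded by Ppme1, is a methylesterase that acts on the catalytic subunit of protein phosphatase PP2A. The labels do not say how Ppme1 was disrupted, whether the KO cells are 1 clone, or whether the libraries of a group came from separate cultures, so p-values measure the spread among these libraries, part of which may be technical.

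Ribosome biogenesis starts with transcription of ribosomal DNA by RNA polymerase I into a long precursor RNA. Small nucleolar ribonucleoproteins (snoRNPs) modify and help to fold this precursor, the small subunit processome cuts out the small subunit RNA, and other factors and RNA helicases build the large subunit. Many of these genes are known targets of the transcription factor MYC and are expressed more in growing cells.

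The KO label held in the counts, since Ppme1 stood at 14.9 to 18.9 CPM (reads of a gene relative to the reads of its library, scaled with TMM factors) in KO libraries and at 78.4 to 86.6 CPM in WT libraries. Total counts were 34450993 to 43000426 in KO and 38155189 to 44116310 in WT libraries. Library 1 of each genotype stood apart from its group: the chi-square per degree of freedom over all genes was 13.1 between KO 2 and KO 3 and 12.7 between WT 2 and WT 3, but 82.3 to 200.5 for every other pair. Xist stood at 0.117 to 0.31 CPM in KO and 369.7 to 490.05 CPM in WT libraries, and the Y-linked gene Ddx3y had 1988 to 3061 counts in KO and 0 in each WT library, so sex and genotype cannot be told apart. Of the fibroblast marker list, 12 of 12 genes had reads in at least 1 library. Fap was near 0, with 0.233, 0 and 0.088 CPM in KO and 0, 0 and 0.092 CPM in WT libraries 1, 2 and 3. The list had a summed level of 15167, 13725 and 12946 CPM in KO libraries 1, 2 and 3 and 16038, 20898 and 22042 CPM in WT libraries 1, 2 and 3. Epithelial markers summed to 147, 129 and 127 CPM in KO and 32.0, 10.6 and 8.54 CPM in WT libraries, with 2 of 8 genes, Krt5 and Krt14, at 0 throughout. Leukocyte markers summed to 1.06 to 4.94 CPM in KO and 1.03 to 2.57 CPM in WT libraries, with 4 of 6 genes at 0. Endothelial markers summed to 2.203 to 3.44 CPM in KO and 0.785 to 2.08 CPM in WT (1 of 5 at 0), muscle markers to 0.176 to 1.11 CPM in KO and 0.111 to 0.739 CPM in WT (3 of 5 at 0), and neural markers to 35.5 to 37.2 CPM in KO and 34.1 to 41.2 CPM in WT (2 of 6 at 0). The part of these other cell type markers in the results below was not tested.

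Several of these markers also set library 1 apart. In 9 of the 12 fibroblast markers KO 1 was the highest KO library and WT 1 the lowest WT library, and in 1 of the 12 the reverse held. Col3a1, a fibrillar collagen, had 2762, 797 and 824 CPM in KO and 525, 3539 and 3375 CPM in WT libraries 1, 2 and 3. Dcn, which encodes the matrix proteoglycan decorin, had 63.2, 12.5 and 15.2 CPM in KO and 1.05, 10.05 and 8.58 CPM in WT libraries. Krt19, a keratin, had 29.1, 64.8 and 65.9 CPM in KO and 29.5, 7.85 and 5.65 CPM in WT libraries, and was the 1 epithelial marker of 8 with KO 1 lowest in KO and WT 1 highest in WT, against 2 with the opposite order. Krt18, another keratin, had 108, 60.8 and 57.5 CPM in KO and 1.78, 1.04 and 1.35 CPM in WT libraries. Krt8 had 5.72, 2.91 and 1.70 CPM in KO and 0.250, 0.185 and 0.252 CPM in WT libraries. In Krt18 and Krt8, each KO library lay above each WT library and KO 1 was the highest. The markers named here, and Fap, Sox2, Map2 and Tubb3 above, were chosen after their values were seen. Their part in the results below was not tested either.

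The 49 genes moved together, and what they followed was the single library rather than the genotype. Their summed level was 4138, 9999 and 10350.4 CPM in KO libraries 1, 2 and 3, against 9876, 4371 and 4532 CPM in WT libraries 1, 2 and 3. KO 1 was thus low like WT 2 and WT 3, while WT 1 was high like KO 2 and KO 3. In 49 of 49 genes, KO 1 lay below both other KO libraries and WT 1 above both other WT libraries, an order found in 29.4% of all 15223 genes tested. KO 1 lay below WT 1 while KO 2 and KO 3 both lay above WT 2 and WT 3 in 49 of 49 genes as well, against 20.4% of all genes. In RNA of a whole culture, fewer cells that express a gene and less of its RNA per cell cannot be told apart.

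**Figure D1:**
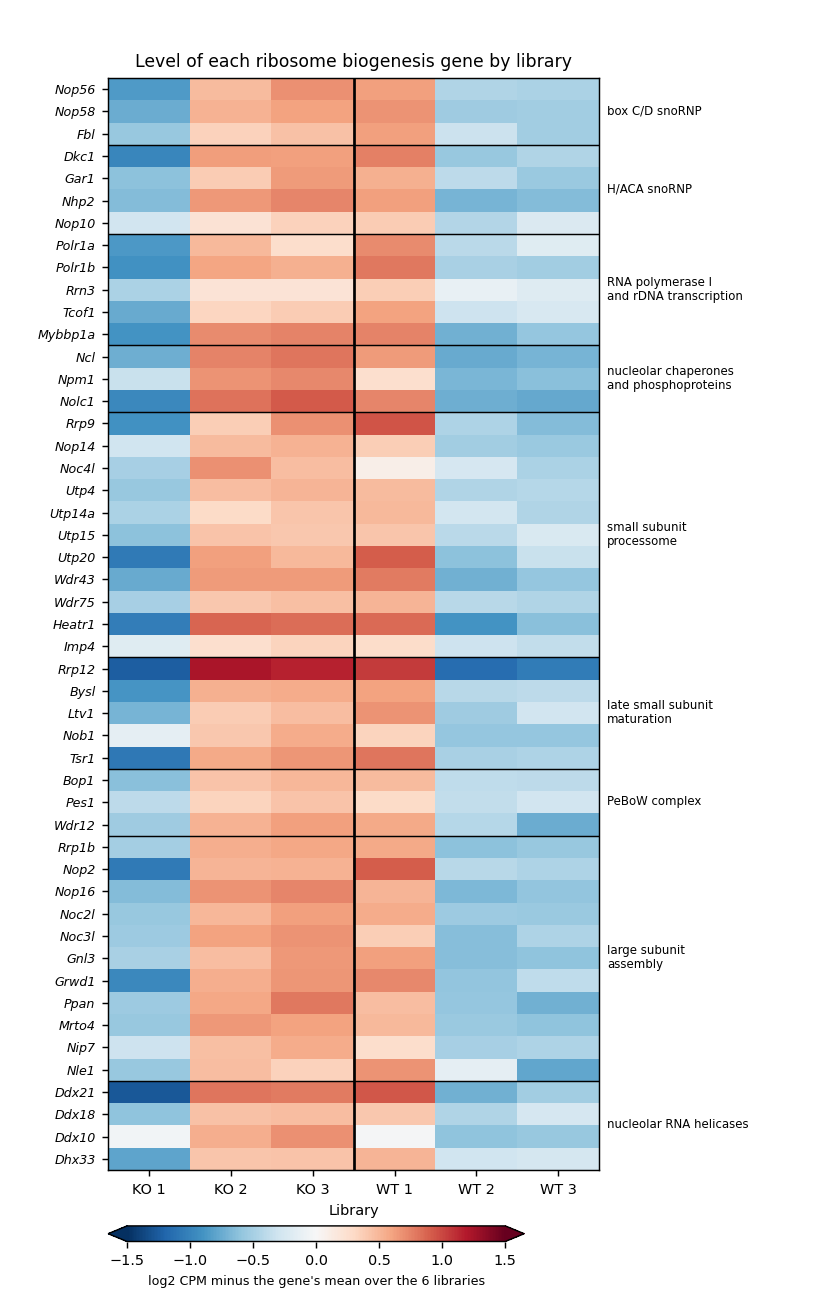
Level of each of the 49 genes (rows, grouped by role) in the 3 KO and 3 WT libraries (columns), as log2 CPM minus the gene's mean over the 6 libraries; blue is below and red above that mean. KO 1, WT 2 and WT 3 are below the mean for nearly all genes, with medians of -0.62, -0.50 and -0.52, and KO 2, KO 3 and WT 1 are above it, with medians of 0.51, 0.58 and 0.57.

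The gap within a genotype was often 2-fold or more. The mean of KO 2 and KO 3 was 2.17-fold the level of KO 1 in the median gene, and WT 1 was 2.12-fold the mean of WT 2 and WT 3. KO 1 was at least 2-fold below its group in 37 of 49 genes (4.39% of all genes), WT 1 at least 2-fold above its group in 30 (5.47% of all genes), and both held in 28 (1.84% of all genes). Libraries 2 and 3 differed little: they were within 1.25-fold of each other in 49 genes between KO 2 and KO 3 and in 48 between WT 2 and WT 3. The exception was Nle1, a factor of large subunit assembly, with 16.3 CPM in WT 2 and 10.4 CPM in WT 3.

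The size of the gap differed among the genes but was alike in both genotypes. It ran from 1.39-fold for Imp4, a small subunit processome protein, to 5.36-fold for Rrp12, a factor in subunit maturation and export, between KO 2 and 3 and KO 1. Between WT 1 and WT 2 and 3 it ran from 1.37-fold for Noc4l, another processome protein, to 4.43-fold, again for Rrp12. Across the 49 genes, the log2 difference of KO 1 from its group and that of WT 1 from its group had a Pearson r of -0.87 and a Spearman rho of -0.835. Across all 15223 genes the same values were -0.51 and -0.61. These are descriptions, since all points share the same 6 libraries and their depth.

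**Figure D2:**
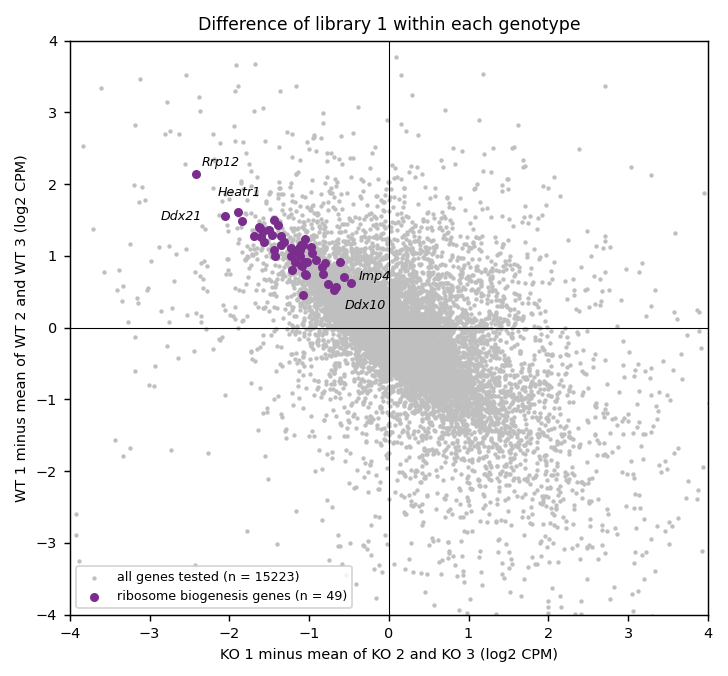
Log2 CPM of KO 1 minus the mean of KO 2 and KO 3 (x axis) against WT 1 minus the mean of WT 2 and WT 3 (y axis) for the 49 ribosome biogenesis genes (purple) and all 15223 genes tested (grey); 75 genes lie outside the plotted range of 4 on either axis. All 49 genes lie in the upper left corner of the plot, where KO 1 is low and WT 1 is high, with Rrp12 farthest out and Imp4, Rrn3 and Ddx10 nearest to the centre.

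The promoters of genes at both ends of this range are shown because the genes moved together while differing in size. Each window runs from 250 bases before to 50 bases after the annotated start, is taken from RefSeq on build GRCm38.p6, and is written in the direction of transcription. Capitals mark a match to CACGTG, the core E-box that MYC can bind, or to CCGGAAG, a core of ETS family sites. The lines give Ddx21 (chr10:62602249-62602548 on the minus strand), Heatr1 (chr13:12395125-12395424 on the plus strand) and Nolc1 (chr19:46075597-46075896 on the plus strand), which had large gaps, then Ddx10 (chr9:53248063-53248362 on the minus strand) and Imp4 (chr1:34439579-34439878 on the plus strand), which had small ones.
Ddx21: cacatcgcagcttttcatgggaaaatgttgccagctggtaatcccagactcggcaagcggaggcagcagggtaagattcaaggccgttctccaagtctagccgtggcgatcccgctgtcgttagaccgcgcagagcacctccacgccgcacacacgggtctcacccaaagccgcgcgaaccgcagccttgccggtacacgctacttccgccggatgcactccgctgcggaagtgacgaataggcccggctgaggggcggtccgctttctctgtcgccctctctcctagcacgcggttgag
Heatr1: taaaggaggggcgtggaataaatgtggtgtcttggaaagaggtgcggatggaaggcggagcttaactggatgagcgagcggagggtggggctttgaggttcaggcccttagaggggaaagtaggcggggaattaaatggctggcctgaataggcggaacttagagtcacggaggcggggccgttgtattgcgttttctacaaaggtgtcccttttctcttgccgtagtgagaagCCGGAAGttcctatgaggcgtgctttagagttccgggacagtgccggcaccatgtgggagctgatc
Nolc1: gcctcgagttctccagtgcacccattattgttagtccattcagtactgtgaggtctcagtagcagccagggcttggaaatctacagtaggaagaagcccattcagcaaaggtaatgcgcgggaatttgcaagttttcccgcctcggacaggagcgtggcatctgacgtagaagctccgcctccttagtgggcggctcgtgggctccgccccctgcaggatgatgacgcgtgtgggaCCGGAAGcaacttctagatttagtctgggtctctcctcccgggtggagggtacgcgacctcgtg
Ddx10: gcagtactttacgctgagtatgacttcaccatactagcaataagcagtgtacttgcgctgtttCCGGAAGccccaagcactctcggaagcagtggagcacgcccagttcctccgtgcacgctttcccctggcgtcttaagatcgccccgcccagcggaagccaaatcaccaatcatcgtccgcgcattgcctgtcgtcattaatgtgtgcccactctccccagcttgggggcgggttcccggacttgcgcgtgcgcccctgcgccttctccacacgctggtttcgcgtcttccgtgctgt
Imp4: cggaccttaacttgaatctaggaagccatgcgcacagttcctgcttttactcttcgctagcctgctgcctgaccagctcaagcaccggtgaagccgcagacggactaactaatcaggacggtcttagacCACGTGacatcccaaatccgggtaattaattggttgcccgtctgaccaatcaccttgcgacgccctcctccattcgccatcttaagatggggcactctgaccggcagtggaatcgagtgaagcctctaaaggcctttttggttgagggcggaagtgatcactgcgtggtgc
The window of Ddx21 held neither motif in these letters. CCGGAAG began 16 bases before the start of Heatr1, 14 before that of Nolc1 and 187 before that of Ddx10, and CACGTG began 121 bases before the start of Imp4.

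A window was at hand for 44 of the 49 genes, with Rrp12, Npm1, Tcof1, Fbl and Bop1 the others. On either strand, CACGTG was found in 13 of the 44 (29.55%), against 11.6% of the 10566 tested genes with a window and 8.09% of all 27025 genes with one. CCGGAAG was found in 15 (34.1%), against 19.95% of the tested genes. The gap had a similar size with and without CACGTG, and with and without CCGGAAG. Genes with CACGTG had a median 2.31-fold gap between KO 2 and 3 and KO 1, against 2.27-fold for those without it, and a 2.19-fold against a 2.12-fold gap in WT. With CCGGAAG the gaps were 2.27-fold in KO and 2.16-fold in WT, and without it 2.29-fold in KO and 2.12-fold in WT. These matches are descriptions of letters in a window and were not tested as binding sites. CACGTG reads the same on both strands, and CACGTG and CCGGAAG do not hold each other.

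KO against WT over all 6 libraries asks what followed the genotype, and none of the 49 genes passed that test. By edgeR's quasi-likelihood test with Benjamini-Hochberg adjustment over 15223 genes, 0 were called higher (3.55% of all genes) and 0 lower (3.86% of all genes) at an adjusted p under 0.05, beside 7.40% of all genes in either direction. At an unadjusted p under 0.05, 1 gene passed, Ddx10, against 22.2% of all genes. DESeq2 called 1 gene, again Ddx10 (11.0% of all genes in either direction), and limma-voom called 0 (7.74% of all genes). The KO and WT values overlapped in 49 of 49 genes, whereas they did not overlap in 30.0% of all genes.

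The estimates themselves leaned upward but were wide. The log2 fold change was positive in 46 of 49 genes, with a median of 0.26 and a range of -0.05 to 0.80, beside a median of 0.01 over all genes. Its standard error (SE) had a median of 0.41, against 0.22 over all genes. The 95% interval lay above 0 in 1 gene, Ddx10. When each gene's variation over the 6 libraries was split into 5 independent contrasts, KO against WT took a median of 6.71% of it in the 49 genes and 28.0% in all genes. Library 1 against libraries 2 and 3, both genotypes summed, took 92.5% in the 49 genes and 49.9% in all genes. That share sums 2 of the 5 contrasts, whereas KO against WT is 1 of them. The library 1 contrasts were set after library 1 had been seen to stand apart. The genotype took over 50% of the variation in 1 of the 49 genes, Ddx10, with 65.1%, and the library 1 contrasts took over 50% in the other 48.

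**Figure D3:**
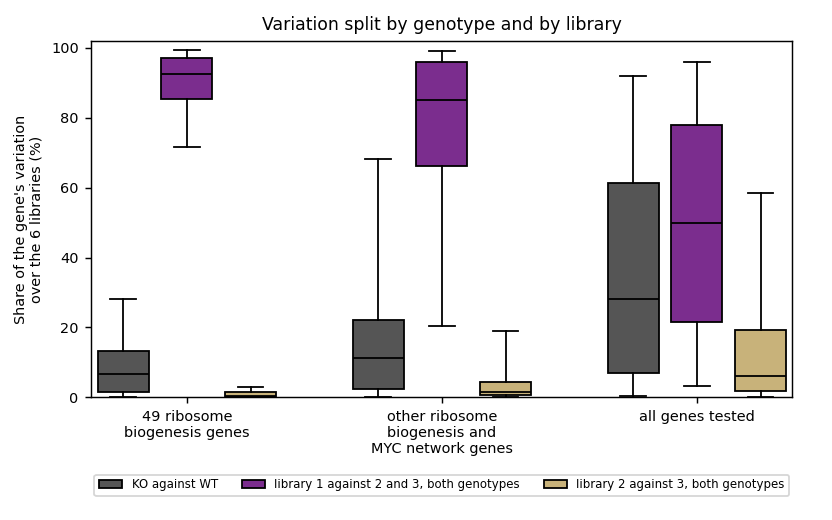
Share of each gene's variation over the 6 libraries, in percent, taken by KO against WT (grey), by library 1 against libraries 2 and 3 in both genotypes (purple) and by library 2 against 3 in both genotypes (tan), for the 49 genes, the other ribosome biogenesis and MYC network genes, and all genes tested. The purple and tan shares each sum 2 contrasts, and the grey share is 1 contrast. Boxes show quartiles and medians, and whiskers the 5 and 95 percentiles. The median purple share is 92.5% in the 49 genes and 49.9% in all genes.

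Which libraries entered decided the estimate. Without KO 1 the median log2 fold change of the 49 genes was 0.57 and without WT 1 it was 0.72, with 49 of 49 positive each time, whereas it was 0.11 without KO 2, 0.07 without KO 3, 0.08 without WT 2 and 0.09 without WT 3. Between KO 2 and 3 and WT 2 and 3 alone, 49 of 49 genes were called higher in KO (23.3% of all genes). Their median log2 fold change was 1.06, with a range of 0.35 for Rrn3 to 2.28 for Rrp12. Their edgeR adjusted p ran from 7.6e-10 to 0.00593. KO 1 and WT 1 were left out after earlier results of these data had shown them apart. These calls and p-values therefore describe the 4 libraries and are no independent test of genotype. The KO and WT values did not overlap in 16 of the 49 genes without KO 1 (48.2% of all genes), in 9 without WT 1 (47.3% of all genes) and in 49 without both (74.6% of all genes). With all 6 libraries, 1 gene, Ddx10, had no overlap under upper-quartile factors (29.7% of all genes) or library sizes alone (29.8% of all genes). In KO 1 against WT 1, a single pair with no replicates, 49 of 49 genes lay lower in KO, with a median log2 difference of -1.16. In the 4 libraries numbered 2 and 3, genotype cannot be told apart from whatever else separates those libraries. Summed proliferation markers were 2597, 3322 and 3110 CPM in KO libraries 1, 2 and 3 and 3385, 3007 and 3186 CPM in WT libraries 1, 2 and 3, lowest in KO 1 and highest in WT 1, and 8 of the 10 markers had KO 1 lowest in KO and WT 1 highest in WT. Their part in the result was not tested.

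**Figure D4:**
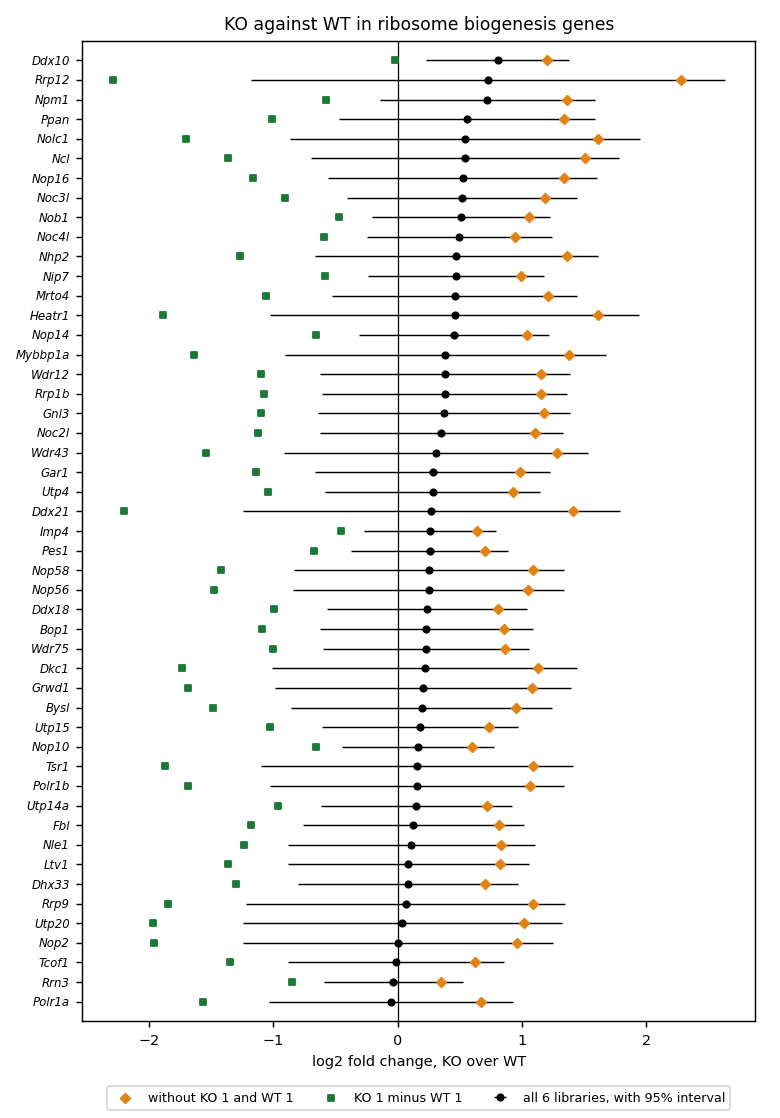
Log2 fold change, KO over WT, of each of the 49 genes (rows) from all 6 libraries with its 95% interval (black), from the 4 libraries left without KO 1 and WT 1 (orange), and as KO 1 minus WT 1 alone (green). Green points lie below 0 and orange points above it in all 49 genes, and the black interval excludes 0 in Ddx10 alone.

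RNA polymerase I genes stood closest to no difference between genotypes, with a median log2 fold change of -0.01 over 5 genes. Mybbp1a, a nucleolar protein found with RNA polymerase I, had 210.4, 642 and 654 CPM in KO libraries 1, 2 and 3, against 656, 238 and 261 CPM in WT libraries 1, 2 and 3. Its values fell into a low trio of KO 1, WT 2 and WT 3 and a high trio of the others, and its log2 fold change was 0.38 (SE 0.54, edgeR adjusted p = 0.743). Tcof1 encodes treacle, which acts in ribosomal DNA transcription, and had 138, 289.5 and 303 CPM in KO and 352, 187 and 197 CPM in WT libraries. WT 1 was the highest of the 6 and KO 1 the lowest, and the fold change was -0.01 (SE 0.37, edgeR adjusted p = 0.992). Polr1a, the largest subunit of RNA polymerase I, had the lowest fold change of the 49 genes at -0.05, with 75.3, 191 and 163 CPM in KO and 223, 103 and 119.9 CPM in WT libraries. Rrn3, the initiation factor of RNA polymerase I, varied less, with 68.7, 109.8 and 110.5 CPM in KO and 124, 88.8 and 83.6 CPM in WT libraries. Its groups overlapped like those of Polr1a, and Polr1b, a core subunit, had a fold change of 0.15.

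The box C/D snoRNP proteins, which carry out methylation of ribosomal RNA, had log2 fold changes of 0.13 to 0.25 over 3 genes. Nop56, a scaffold protein of the particle, had 116, 292 and 336 CPM in KO and 322, 153 and 151 CPM in WT libraries 1, 2 and 3. KO 1 was the lowest of all 6, and the fold change of 0.25 (SE 0.46, edgeR adjusted p = 0.809) was smaller than the gap within either group. Nop58, its partner, had 107, 258 and 271 CPM in KO and 286, 124 and 125 CPM in WT libraries, with WT 1 the highest of the 6. Its fold change was also 0.25 (SE 0.46, edgeR adjusted p = 0.807). Fbl, the methyltransferase, had 80.8, 152 and 162 CPM in KO and 183, 95.7 and 83.0 CPM in WT libraries, in the same order of high and low.

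The H/ACA snoRNP proteins, which convert uridine to pseudouridine, had a median log2 fold change of 0.25 over 4 genes. Dkc1, the pseudouridine synthase, had 51.0, 156 and 155 CPM in KO and 170.0, 68.0 and 73.9 CPM in WT libraries 1, 2 and 3. WT 1 exceeded each KO library, and the fold change was 0.22 (SE 0.51, edgeR adjusted p = 0.856). Nhp2, a core protein of the particle, had 46.4, 115 and 122 CPM in KO and 112, 45.2 and 46.6 CPM in WT libraries. KO 1 lay between WT 2 and WT 3, and the fold change was 0.47 (SE 0.48, edgeR adjusted p = 0.627). Nop10, the smallest of these proteins, showed a shallower version, with 26.6, 37.7 and 41.1 CPM in KO and 42.1, 24.0 and 28.0 CPM in WT libraries, and Gar1 had a fold change of 0.28.

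The nucleolar chaperones and phosphoproteins had the highest median level per length and the highest median log2 fold change of the 9 role groups, 0.54 over 3 genes. Per kilobase of longest coding sequence, Npm1 averaged 1172 CPM and Ncl 638 CPM, the highest of the 49 genes, against 13.2 CPM for Nle1 and 13.3 CPM for Rrp12 at the low end. On the same scale Nolc1 averaged 96.7 CPM, at rank 12 of the 49. Ncl encodes nucleolin (chr1:86344719-86359400, minus strand, GENCODE M21 on GRCm38), which binds ribosomal RNA precursors. It had 721, 2003 and 2091 CPM in KO and 1860.1, 705 and 738 CPM in WT libraries 1, 2 and 3. KO 1 matched WT 2 and WT 3 closely, and the fold change was 0.54 (SE 0.52, edgeR adjusted p = 0.605). Npm1 encodes nucleophosmin, a histone and ribosomal protein chaperone (chr11:33152287-33163206, minus strand), with 755, 1512 and 1568 CPM in KO and 1127, 588 and 612 CPM in WT libraries. KO 2 and KO 3 were above every WT library and KO 1 was below WT 1, which gave a fold change of 0.72 (SE 0.36, edgeR adjusted p = 0.307). Rows matched to Npm1 pseudogenes held 6.78% of the reads of the family. Nolc1, a snoRNP chaperone, had 89.0, 307 and 329 CPM in KO and 289.8, 105 and 103 CPM in WT libraries, with KO 1 the lowest, and a fold change of 0.54 (SE 0.59, edgeR adjusted p = 0.653).

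**Figure D5:**
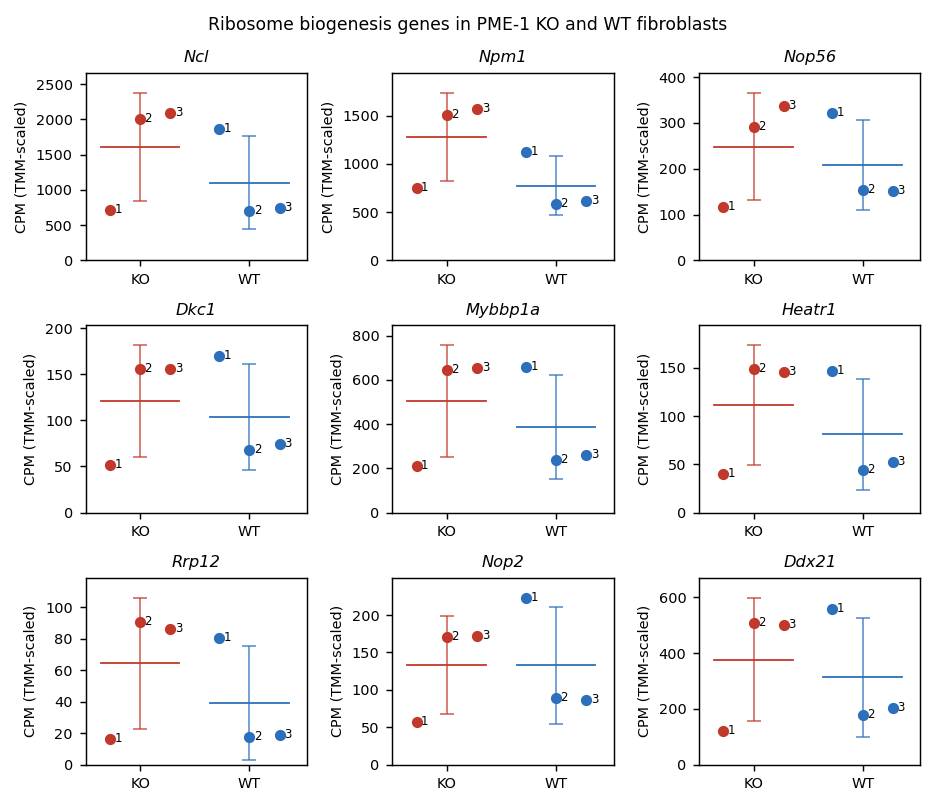
CPM of 9 genes in KO libraries 1, 2 and 3 (left) and WT libraries 1, 2 and 3 (right); each point is 1 library and the bar with whiskers is the mean ± SD of the 3 libraries. In each panel KO 1 lies far below KO 2 and KO 3, and WT 1 far above WT 2 and WT 3, as in Ncl with 721 CPM in KO 1 and 1860.1 CPM in WT 1.

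The small subunit processome, which folds and cuts the precursor around the small subunit RNA, had 11 genes with log2 fold changes of 0.04 to 0.50. Utp20 had 63.7, 203 and 186 CPM in KO and 249.7, 86.7 and 105 CPM in WT libraries 1, 2 and 3. The highest and the lowest library were WT 1 and KO 1, and the fold change was 0.04 (SE 0.54, edgeR adjusted p = 0.977). Wdr43, a subunit that binds early to the precursor, had 73.5, 193 and 194 CPM in KO and 214, 75.6 and 83.2 CPM in WT libraries. KO 1 was the lowest library, just below WT 2, and the fold change was 0.31 (SE 0.51, edgeR adjusted p = 0.787). Heatr1, which also takes part in RNA polymerase I transcription, had 39.6, 149 and 145 CPM in KO and 147, 43.6 and 52.5 CPM in WT libraries. WT 1 lay between KO 3 and KO 2, and the fold change was 0.46 (SE 0.62, edgeR adjusted p = 0.73).

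Noc4l and Imp4 showed smaller gaps within WT and within both groups. Noc4l had 34.9, 79.7 and 68.0 CPM in KO and 52.6, 41.4 and 35.4 CPM in WT libraries 1, 2 and 3. KO 2 and KO 3 lay above each WT library and KO 1 below each, with a fold change of 0.50 on the log2 scale (SE 0.31, edgeR adjusted p = 0.412). Imp4 had 39.2, 53.1 and 56.0 CPM in KO and 53.9, 35.8 and 34.3 CPM in WT libraries, so that WT 1 lay between KO 2 and KO 3, and its log2 fold change was 0.26 (SE 0.22, edgeR adjusted p = 0.562). The other 6 genes of the group, Rrp9, Nop14, Utp4, Utp14a, Utp15 and Wdr75, had fold changes of 0.06, 0.45, 0.28, 0.15, 0.18 and 0.23 on the same scale.

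Late maturation of the small subunit held the gene with the widest swings. Rrp12 (chr19:41862851-41896173, minus strand, GENCODE M21 on GRCm38) had 16.5, 90.5 and 86.3 CPM in KO and 80.7, 17.6 and 18.8 CPM in WT libraries 1, 2 and 3. KO 1 was the lowest of the 6 libraries and WT 1 fell just short of KO 3, so means of 64.4 ± 41.6 CPM in KO and 39.0 ± 36.1 CPM in WT (SD, n = 3 each) overlapped, with a log2 fold change of 0.72 (SE 0.80). Its edgeR adjusted p was 0.66. Bysl, an early partner of the small subunit precursor, had 33.7, 89.6 and 91.5 CPM in KO and 94.2, 46.6 and 47.2 CPM in WT libraries. WT 1 was the highest and KO 1 the lowest, with a fold change of 0.19 (SE 0.44, edgeR adjusted p = 0.852). Tsr1, a GTPase-like factor of the same particle, had 40.8, 127 and 135 CPM in KO and 149, 61.2 and 62.3 CPM in WT libraries, and a fold change of 0.15 (SE 0.53, edgeR adjusted p = 0.904). WT 1 was again the highest library and KO 1 the lowest. Exons of Tsr1 share 32.3% of their bases with Srr on the opposite strand, and those of Bysl 9.37% with Ccnd3, and whether the counting used strand is not given in the sources used here. Ltv1 and Nob1, the nuclease of the final small subunit cut, had fold changes of 0.09 and 0.51.

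The PeBoW complex, which is needed to process the large subunit RNA, had log2 fold changes of 0.23 to 0.38. Bop1 had 83.0, 173 and 181 CPM in KO and 177, 97.8 and 97.0 CPM in WT libraries 1, 2 and 3, with a fold change of 0.23 (SE 0.36, edgeR adjusted p = 0.771). Pes1 had 96.4, 159 and 169 CPM in KO and 154, 97.9 and 104 CPM in WT libraries, with a fold change of 0.26 (SE 0.26, edgeR adjusted p = 0.634). Wdr12 had 29.0, 60.5 and 64.6 CPM in KO and 62.2, 31.2 and 25.1 CPM in WT libraries, with a fold change of 0.38 (SE 0.42, edgeR adjusted p = 0.663). In all 3 subunits WT 1 lay near KO 2 and KO 3, and KO 1 near WT 2 and WT 3, so the groups overlapped.

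Genes of large subunit assembly had a median log2 fold change of 0.38 over 11 genes. Nop2, a methyltransferase of large subunit RNA, averaged 133 ± 65.8 CPM in KO and 133 ± 78.2 CPM in WT (SD, n = 3 each), from 57.2, 170.2 and 172 CPM in KO and 223, 89.2 and 86.3 CPM in WT libraries 1, 2 and 3. The equal means came from groups with opposite odd libraries, and the fold change was 0.00 (SE 0.52, edgeR adjusted p = 0.999). Noc2l, a transport and assembly factor, had 90.5, 189 and 204 CPM in KO and 197, 91.7 and 91.3 CPM in WT libraries. KO 1 was level with WT 2 and WT 3, and the fold change was 0.35 (SE 0.41, edgeR adjusted p = 0.682), while 20.9% of its exon bases are shared with Samd11 on the opposite strand. Ppan, an early large subunit factor, had 28.1, 61.2 and 71.2 CPM in KO and 56.6, 27.5 and 24.9 CPM in WT libraries. KO 2 and KO 3 exceeded every WT library, KO 1 lay below WT 1, and the fold change was 0.56 (SE 0.43, edgeR adjusted p = 0.514). The other 8, Rrp1b, Nop16, Noc3l, Gnl3, Grwd1, Mrto4, Nip7 and Nle1, had fold changes of 0.11 for Nle1 to 0.52 for Nop16 and Noc3l.

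The RNA helicases, which unwind and remodel precursor RNA, held both the second widest library gap within KO and the gene nearest to a genotype difference. Ddx21 (chr10:62580251-62602281, minus strand), a helicase of ribosomal RNA transcription and processing, had 121, 509 and 500.4 CPM in KO and 558, 177 and 203 CPM in WT libraries 1, 2 and 3. WT 1 was the highest and KO 1 the lowest, and the log2 fold change was 0.27 (SE 0.64, edgeR adjusted p = 0.856). Ddx18 had 59.5, 123 and 125 CPM in KO and 119, 65.9 and 75.7 CPM in WT libraries, with a fold change of 0.24 (SE 0.34, edgeR adjusted p = 0.745). Its WT 1 value came close to KO 2 and KO 3, and Dhx33 had a fold change of 0.08.

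Ddx10 (chr9:53098635-53248053, minus strand, GENCODE M21 on GRCm38) had KO 1 level with WT 1, the smallest gap between these libraries among the 49 genes. The log2 difference of KO 1 from WT 1 was -0.02 for Ddx10, against -0.46 for Imp4, the next smallest, and a median of -1.16. Ddx10 had 44.1, 66.5 and 73.0 CPM in KO and 44.7, 29.9 and 30.6 CPM in WT libraries 1, 2 and 3. The groups thus overlapped through KO 1 and WT 1 alone, with means of 61.2 ± 15.2 CPM in KO and 35.1 ± 8.34 CPM in WT (SD, n = 3 each). The log2 fold change was 0.80 (SE 0.24, 95% interval 0.23 to 1.38), with an edgeR adjusted p of 0.107. DESeq2 gave an adjusted p of 0.0225 and edgeR without KO 1 gave 0.0414, and over the alternatives the edgeR adjusted p ranged from 3.73e-07 without KO 1 and WT 1 to 0.432 with the replicate number as a block. In the same gene, KO 2 and 3 lay 1.58-fold above KO 1, and WT 1 lay 1.48-fold above WT 2 and 3.

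Other genes of the pathway showed the same library order in a milder form. Of 129 further genes of ribosome biogenesis, the RNA exosome and the MYC network, 126 were tested, and the order with KO 1 lowest in KO and WT 1 highest in WT held in 110. The median gap was 1.57-fold between KO 2 and 3 and KO 1, and 1.45-fold between WT 1 and WT 2 and 3. The order held in 34 of 36 other small subunit processome genes, 46 of 48 other large subunit genes, 9 of 12 other RNA polymerase I genes, 8 of 9 exosome genes, 5 of 6 other snoRNP genes and 4 of 6 other late small subunit genes.

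KO against WT called 3 of the 126 genes higher (3.55% of all genes) and 0 lower (3.86% of all genes) by edgeR, and DESeq2 and limma-voom likewise called 3 higher and 0 lower each. At an unadjusted p under 0.05, 8 of the 126 passed edgeR's test in either direction (22.2% of all genes). Imp3, a processome protein, had 31.9, 28.0 and 34.2 CPM in KO and 20.4, 19.3 and 18.3 CPM in WT libraries 1, 2 and 3, and rose with a log2 fold change of 0.70 (SE 0.13, edgeR adjusted p = 0.0247). Exosc3, a subunit of the RNA exosome, had 36.1, 40.9 and 38.2 CPM in KO and 28.6, 24.8 and 24.6 CPM in WT libraries, and rose with a fold change of 0.56 (SE 0.12, edgeR adjusted p = 0.0391). Mlx, a partner in the extended MYC network, had 34.1, 36.2 and 39.6 CPM in KO and 26.8, 24.7 and 26.2 CPM in WT libraries, and rose with a fold change of 0.50 (SE 0.11, edgeR adjusted p = 0.0472). In these 3 genes, which were called from the same values, each KO library lay above each WT library. KO 2 and 3 were 0.969- to 1.11-fold the level of KO 1, and WT 1 was 1.06- to 1.16-fold the level of WT 2 and 3. Each KO library lay above each WT library in 7 of the 126 genes (14.6% of all genes). Each lay below in 4 of the 126, beside 2342 of all 15223 genes tested. In either direction, 30.0% of all genes had no overlap. Mlx shares 19.3% of its exon bases with Psmc3ip on the opposite strand. The count of pathway genes called higher fell to 0 without KO 2, KO 3, WT 2 or WT 3, was 2 without WT 1 and stayed at 3 without KO 1.

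In the MYC network the library order split. Myc itself had 34.8, 86.7 and 92.2 CPM in KO and 108, 38.3 and 38.7 CPM in WT libraries 1, 2 and 3. It was low in KO 1, WT 2 and WT 3 and high in the others, as the 49 genes were, with gaps of 2.56-fold in KO and 2.80-fold in WT and a log2 fold change of 0.21 (SE 0.52, edgeR adjusted p = 0.862). Of the 9 network genes tested, 4 had the order of Myc and 5 had KO 1 highest in KO and WT 1 lowest in WT. These 5 were Mxd1, Mxd3, Mxd4, Mxi1 and Mnt, which encode repressors that compete with MYC for its partner MAX, and they were chosen for naming after their values were seen. Mxd4 had 75.3, 40.0 and 36.1 CPM in KO and 54.5, 115 and 107 CPM in WT libraries, so KO 1 was the highest KO library and WT 1 the lowest WT library.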

How the data were processed

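RNA of 6 libraries was prepared with the MGIEasy directional kit, which keeps strand, per the labels. The authors deposited raw counts of reads for each gene symbol, 1 file per library. The submitters' processing notes name Trim Galore 0.6.6 and HISAT2 2.2.1, and a human build for these mouse symbols; no coordinates from that build were used. The counting program, the strand option and the annotation were not given in the sources used here. Groups follow the sample titles, since the genotype entries of KO 2 and KO 3 give another number after PME. The members and gene lists were chosen with earlier results of these data known.

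The main test was the quasi-likelihood test of edgeR 4.0.16 (R 4.3.3), with TMM factors, a robust fit and genes kept by filterByExpr, and p-values were adjusted over 15223 genes by Benjamini-Hochberg at a threshold of 0.05. Log2 CPM used a prior count of 2. Each gene's variation in log2 CPM was split into orthogonal contrasts. The lowest count of any of the 49 genes in any library was 455, and mean levels ran from 19.2 to 1353 CPM. Values by library were given for genes past the threshold and, in each role group, the 2 of highest level and the 1 of largest fold change. They were also given for the 4 largest library 1 differences, called pathway genes (up to 8 per direction) and Myc. Polr1a, Rrn3, Fbl, Nop10, Imp4, Nle1 and Mxd4 were added after their values were seen. So were the markers Col3a1, Dcn, Krt19, Krt18, Krt8, Sox2, Map2, Tubb3 and Fap. Of the 129 other pathway genes, 1 was not found and 2 were too low to be tested. Positions are from GENCODE M21, and promoters from RefSeq. Pseudogene transcripts were matched with blastn (E-value limit 1e-10, at least 50% aligned). The alternatives were DESeq2 1.42.0, limma-voom (limma 3.58.1), other scaling factors and filters, the replicate number as a block, and libraries left out. The edgeR fit was tested on simulated data.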

Additional observations from a re-analysis of the deposited data

How the results depend on the processing

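No setting with all 6 libraries called a member lower, and DESeq2 was the one such setting that called a member higher (1). DESeq2 called 1956 genes in all, against 1127. With the replicate number as a block, 8 genes were called in all and 0 other pathway genes higher. Same-numbered KO and WT libraries had deviations from their group means that correlated at -0.51, -0.31 and -0.22. The labels do not say whether equal numbers mark libraries prepared together, and these correlations cannot decide it. Whether the block result is a paired test is therefore not known. Without KO 1 and WT 1, which were left out after they had been seen to stand apart, 7408 genes were called. Of these, 49 members and 100 other pathway genes were higher (23.3% of all genes), and 6 other pathway genes were lower (24.6% of all genes). The members' median log2 fold change was 1.06, and 49 members had groups without overlap (74.6% of all genes). The groups of 1 member, Ddx10, did not overlap with upper-quartile factors (29.7% of all genes) or with library sizes alone (29.8%), against 0 with TMM or median-ratio factors over all 6 libraries. Leaving out 1 library at a time gave 332 to 1216 called genes, 0 to 1 member called higher, 0 to 3 other pathway genes called higher, and 0 to 16 members without overlap (16 without KO 1, beside 48.2% of all genes, and 9 without WT 1, beside 47.3%). Log2 fold changes near 0 changed sign: Tcof1 was 0.0491 with upper-quartile factors, 0.0448 with library sizes alone, 0.015 among genes averaging 5 CPM or more and 0.62 without KO 1 and WT 1, and Nop2 was -0.0143 with limma-voom and -0.00557 without a filter. With 1 library left out, they ranged from -0.0361 to 0.71 for Nop56, -0.0161 to 0.77 for Dkc1, -0.20 to 0.34 for Tcof1, -0.24 to 0.65 for Utp20, -0.12 to 0.71 for Tsr1, -0.0251 to 0.61 for Bysl, -0.23 to 0.60 for Nop2 and -0.0155 to 0.985 for Ddx21. Summing members with rows matched to their pseudogenes changed no call. The causes were not tested.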
